A study of Gallus gallus with 3 samples.

Results

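CD74, CTSS, TLR4, MARCO and LY86 are 5 genes of macrophages and of antigen presentation, followed here in the breast muscle of male broilers of the Arbor Acres breed, chickens (Gallus gallus) bred for rapid growth and meat. They were chosen by name: RefSeq transcripts were paired with gene symbols, and each of the 5 symbols was found, so the set holds 5 of 10663 named genes. All birds were 42 days old and had been kept at 50 ± 3 ppm of atmospheric ammonia. The 3 libraries make up a single group, numbered 1 to 3 as in their titles. Another exposure was not analysed here, so ammonia was not compared with anything. Nothing in the labels ties the libraries to separate birds, and SDs and p-values therefore reflect the spread among these libraries alone, which may be technical.

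Macrophages are resident phagocytes of muscle that clear debris and sense microbes. They share with dendritic cells and B cells the display of peptides on class II molecules of the major histocompatibility complex (MHC). CD74, the invariant chain, holds the peptide groove of a new class II molecule shut until it reaches an acidic compartment, and CTSS, cathepsin S, is the protease that in mammals trims the chain there so that a peptide can bind. TLR4 is the Toll-like receptor of bacterial lipopolysaccharide, and LY86, also called MD-1, is the secreted partner of the TLR4-like receptor CD180 in mammals. MARCO is a scavenger receptor that binds particles and bacteria.

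Each gene had 1 matched transcript, a curated one. Levels are given as FPKM, a count of fragments divided by transcript length and library size, a unit inferred from the deposited values. Read depth is unknown and intervals for counting error cannot be given, and a value near 0 can be a failed estimate. The summed values of the libraries were 569361, 586193 and 573648. The tissue label could be checked against 7 matched genes of fast muscle fibres, led by MYL1, a myosin light chain, at 12654, 17786 and 17487 FPKM in libraries 1 to 3 and TNNT3, fast troponin T, at 11557, 17041 and 18325 FPKM. Both lay far above each of the 5 genes in every library, as did TNNC2, TNNI2 and TPM1. MYH1A, at 4.77, 216 and 35.4 FPKM, and PVALB, at 2.37, 1.46 and 1.28 FPKM, lay below CD74 in every library.

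The set was dominated by the invariant chain. In libraries 1 to 3, CD74 stood at 325, 270 and 136 FPKM, a mean of 243 ± 97.1 FPKM (SD, n = 3), and ranked 206th among the 6595 genes that reached 1 FPKM in 2 or more libraries. It was highest in library 1 and lowest in library 3. CD74 alone held 86.2%, 83.8% and 85.9% of the summed FPKM of the 5 genes.

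CTSS, which acts on CD74, was listed at 21.3, 26.9 and 9.16 FPKM, a mean of 19.1 ± 9.04 FPKM (SD, n = 3). Unlike CD74 it was highest in library 2, and again lowest in library 3. LY86 was listed at 27.3, 22.9 and 12.1 FPKM, a mean of 20.8 ± 7.84 FPKM (SD, n = 3). Its libraries followed the same order as those of CD74.

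The surface receptors were near the lower limit of the genes analysed. MARCO was listed at 2.32, 1.11 and 0.579 FPKM, a mean of 1.34 ± 0.892 FPKM (SD, n = 3), and TLR4 at 1.21, 1.44 and 0.478 FPKM, a mean of 1.04 ± 0.501 FPKM (SD, n = 3). Both passed the filter through libraries 1 and 2 alone, which fixes library 3 as their lowest. A low value there is thus partly built into their being kept. All 5 genes passed.

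In order of mean level the genes ran CD74, LY86, CTSS, MARCO and TLR4. The means of LY86 and CTSS differed by less than the SD of either gene, and the pair changed places in library 2. The same held for MARCO and TLR4, which also changed places in library 2. CD74 lay above LY86, and CTSS above MARCO, in every library. Together the set held 0.066%, 0.055% and 0.028% of the total of libraries 1 to 3, a mean of 0.050 ± 0.020% (SD, n = 3).

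**Figure D1:**
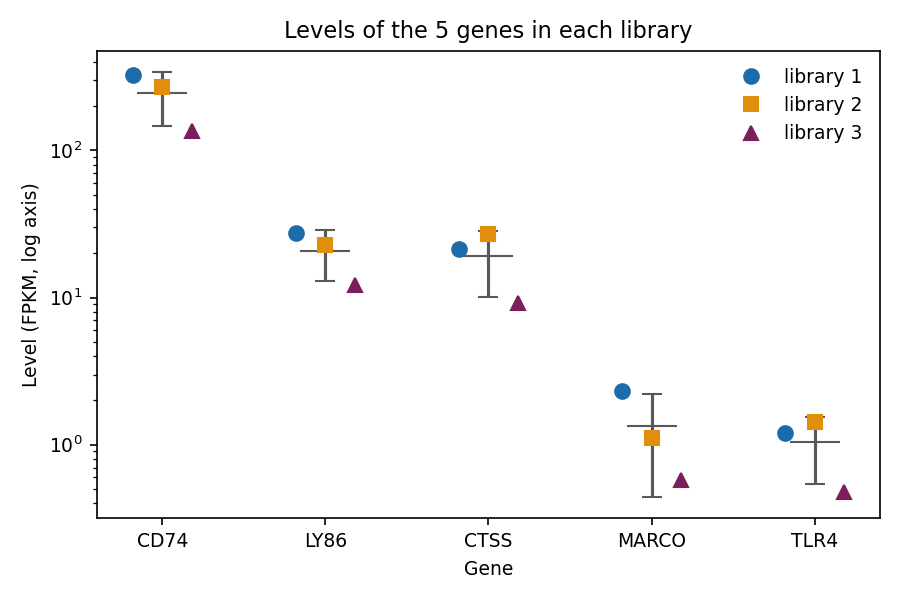
Level of each gene in FPKM on a log axis, with 1 symbol per library and a grey bar for the mean ± SD of 3 libraries. The symbol of library 3 is the lowest for each of the 5 genes, and CD74, with a mean of 243 FPKM, stands above the other 4.

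Library 3 had the lowest value of all 5 genes. Of all 6595 genes, 39.4% were lowest in library 3 (28.5% after median-of-ratios scaling, a second way of making libraries comparable, under which the 5 genes were also lowest there). For TLR4 and MARCO, kept through libraries 1 and 2 alone, the filter fixed library 3 as the lowest. CD74, CTSS and LY86 reached 1 FPKM in every library. The genes were chosen with this pattern known, so the count is a description. In plain FPKM, library 3 held 0.42 times the CD74 of library 1 and 0.50 times that of library 2. For LY86 the ratios were 0.44 and 0.53, for CTSS 0.43 and 0.34, for TLR4 0.40 and 0.33, and for MARCO 0.25 and 0.52. All 5 genes were thus at least 1.5-fold lower in library 3 than in library 1 (22.8% of all genes) and than in library 2 (12.3% of all genes), and 7.76% of all genes were lower in both comparisons at once.

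On the log2(FPKM + 1) scale, which understates differences of low genes, library 3 minus library 1 was -1.25 for CD74, -1.13 for CTSS, -1.11 for LY86, -1.07 for MARCO and -0.58 for TLR4. The median of all genes was -0.16, and median-of-ratios scaling moved it to 0.01. Library 3 minus library 2 was -0.98 for CD74, -1.45 for CTSS, -0.87 for LY86, -0.42 for MARCO and -0.72 for TLR4, where the median of all genes was -0.02. A 1.5-fold lower level on this scale was reached by 4 of 5 genes against library 1 (17.4% of all genes) and by 4 of 5 against library 2 (8.23% of all genes). TLR4 missed it in the first comparison and MARCO in the second, which left CD74, CTSS and LY86 for both at once (4.53% of all genes). Each comparison sets 1 library against 1 other, so none has a test.

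Set against the mean of libraries 1 and 2, library 3 differed by -1.29 log2 in CTSS, the 86th lowest of the 6595 genes. CD74 stood at -1.12 and was the 141st lowest, and LY86 at -0.99 was the 186th. MARCO at -0.75 and TLR4 at -0.65 were the 376th and 545th. Without library 1 the value of MARCO was -0.42.

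**Figure D2:**
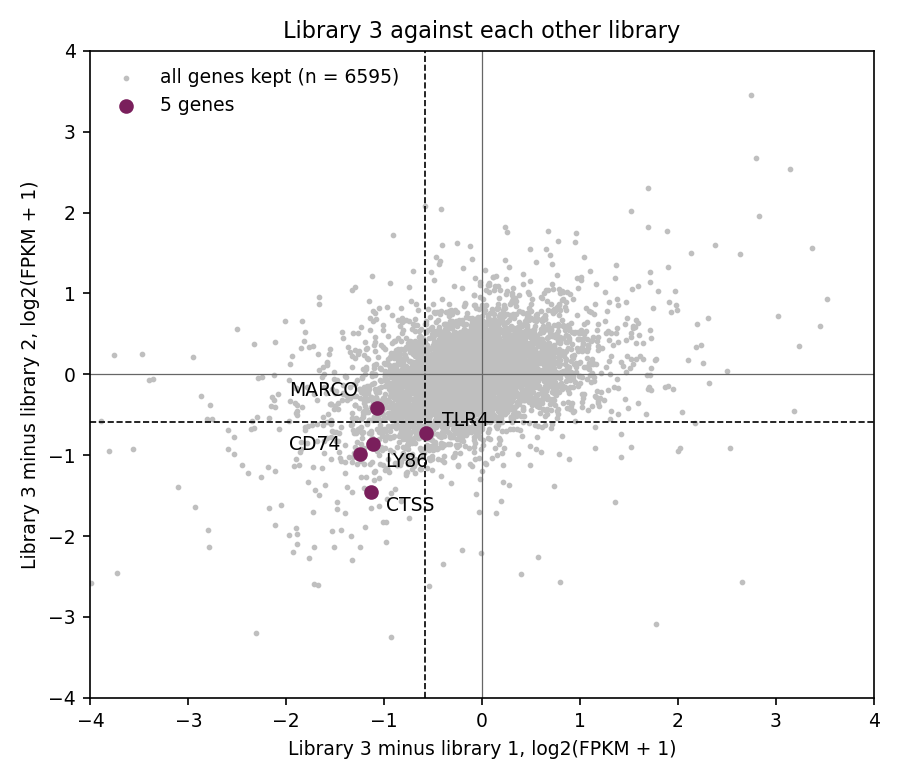
Library 3 minus library 1 (horizontal) against library 3 minus library 2 (vertical), both in log2(FPKM + 1), for 6595 genes in grey and the 5 genes in colour, with dashed lines at a 1.5-fold lower level; 3 genes lie beyond the axis limit of 4. All 5 genes lie below 0 on both axes, with CD74, CTSS and LY86 past both dashed lines.

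Between libraries 1 and 2 the genes did not share a direction. Library 2 held 0.83 times the CD74, 0.84 times the LY86 and 0.48 times the MARCO of library 1, but 1.26 times its CTSS and 1.19 times its TLR4. MARCO alone differed by 1.5-fold and was lower in library 2, as were 16.1% of all genes on the log2(FPKM + 1) scale and 21% in plain FPKM. None of the 5 was 1.5-fold higher in library 2, against 8.63% of all genes on the first scale and 10.9% on the second. After median-of-ratios scaling MARCO no longer reached 1.5-fold on the log2(FPKM + 1) scale, though its scaled FPKM were 2.12 in library 1 and 1.12 in library 2.

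The spread of each gene over the 3 libraries was then tested against genes of like level, as its variance over the mean-dependent trend fitted by limma. CTSS had the smallest p of the set, 0.037 before adjustment and 0.81 after Benjamini-Hochberg adjustment over all genes in limma. The limma adjusted p was 0.958 for CD74, 0.959 for LY86, 0.959 for MARCO and 0.993 for TLR4. None of the 5 was called. Across the whole table the limma test called 0 of 6595 genes (0%), with 372 genes under an unadjusted p of 0.05, and no other tool was run. It called 31 genes without library 2 and 6 without library 3, none of them among the 5. Missing this threshold with 3 libraries does not show that the genes varied little.

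Ratios between the genes within a library do not depend on how the libraries were scaled. The FPKM of CD74 over that of LY86 was 11.9, 11.8 and 11.3 in libraries 1 to 3, so its highest value was 1.06 times its lowest. CTSS over TLR4 was 17.6, 18.7 and 19.2, with a highest value 1.09 times the lowest. These were the most constant of the 10 pairs, singled out after their values were seen. CD74 over CTSS was 15.3, 10.0 and 14.8, lowest in library 2, and CTSS over MARCO varied most, at 9.17, 24.2 and 15.8.

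The 5 genes thus showed 3 shapes over the libraries. CD74 and LY86 were slightly lower in library 2 than in library 1, CTSS and TLR4 were slightly higher there, and MARCO was lower by more than either. A ratio to CD74 as constant as that of LY86 was kept by 5 of 6591 other genes (0.0759%). For CTSS and TLR4 the count was 3 of 6591 (0.0455%). Both pairs were picked for being constant, so these shares do not measure how rare such constancy is. With 3 libraries and TLR4 near 1 FPKM these are descriptions, with no test.

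**Figure D3:**
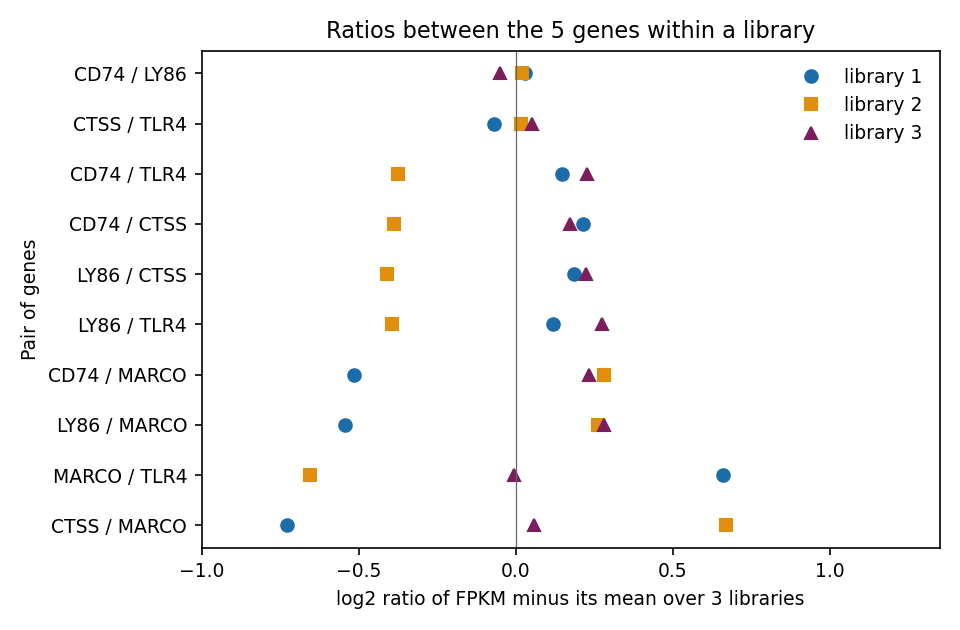
Log2 ratio of FPKM for each of the 10 pairs of genes, less its mean over 3 libraries, with 1 symbol per library and the most constant pair at the top. The 3 symbols of CD74 over LY86 and of CTSS over TLR4 nearly coincide, while CTSS over MARCO ranges from 9.17 in library 1 to 24.2 in library 2.

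The other genes of class II presentation did not all follow CD74 and CTSS. Of 34 listed genes 19 were matched and 16 kept, and 8 of the 16 were lowest in library 3, against 39.4% of all genes. Library 3 was at least 1.5-fold below both other libraries in 5 of them, CD74, CTSS, IFI30, DMB2 and CD83, against 4.53% of all genes. IFI30, a lysosomal thiol reductase that unfolds antigens, was listed at 31.6, 39.8 and 11.4 FPKM. Its difference of library 3 from the mean of the others, -1.56 log2, was the largest among listed genes of at least 5 FPKM. The ratio of CTSS to IFI30 was 0.673, 0.675 and 0.805. DMB2, a chain of the DM molecule that exchanges peptides on class II, was listed at 13.6, 15.7 and 5.77 FPKM, and can share reads with its near copy. CD83, a marker of activated dendritic cells, was listed at 2.07, 2.99 and 1.04 FPKM.

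Lysosomal proteases of broader use on the list were not lowest in library 3. CTSD, cathepsin D, was listed at 84.0, 76.0 and 105 FPKM, highest in library 3, and LGMN, legumain, at 48.2, 60.7 and 50.9 FPKM. The list's transcription factors differed among themselves. NFYC, a subunit of the CCAAT-binding factor NF-Y, was listed at 6.72, 6.18 and 3.86 FPKM and RFX5, of the factor that binds class II promoters, at 2.59, 2.54 and 1.77 FPKM, both lowest in library 3. RFXANK, another subunit of that factor, was listed at 26.7, 18.6 and 19.7 FPKM, while NFYA, at 11.8, 9.14 and 12.6 FPKM, and CREB1, at 5.98, 4.93 and 7.37 FPKM, were highest in library 3. CIITA, the coactivator that switches class II genes on, was under the filter at 0.509, 0.526 and 0.236 FPKM. The median difference of library 3 from the mean of the others was -0.27 log2 for the 16 genes and -0.15 without CD74 and CTSS, against -0.09 for all genes. Chains BLB1 and BLB2 were not matched and are not analysed here.

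Class I presentation shows peptides from inside the cell. All 10 matched genes of 22 listed were kept, and 6 of the 10 were highest in library 1 and 6 lowest in library 3, against 51.1% and 39.4% of all genes, so neither count is far from that of all genes. Library 3 was at least 1.5-fold below library 1 in 6 (17.4% of all genes). It was so below both others in 2, TAP2 and TAPBP (4.53%). The median difference of library 3 from the mean of the others was -0.60 log2, against -0.09 for all genes. After median-of-ratios scaling these were -0.50 and 0.03. BF2, a class I heavy chain, was listed at 757, 332 and 282 FPKM, above CD74 in every library. Reads may be shared with its near copies. BF2 was highest in library 1, and libraries 2 and 3 were close. TAPBP, tapasin, which loads class I molecules, was listed at 32.2, 34.3 and 13.6 FPKM and, like CTSS and IFI30, was highest in library 2 and lowest in library 3. PDIA3, a chaperone of the same loading complex, was listed at 61.7, 70.7 and 78.0 FPKM.

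**Figure D4:**
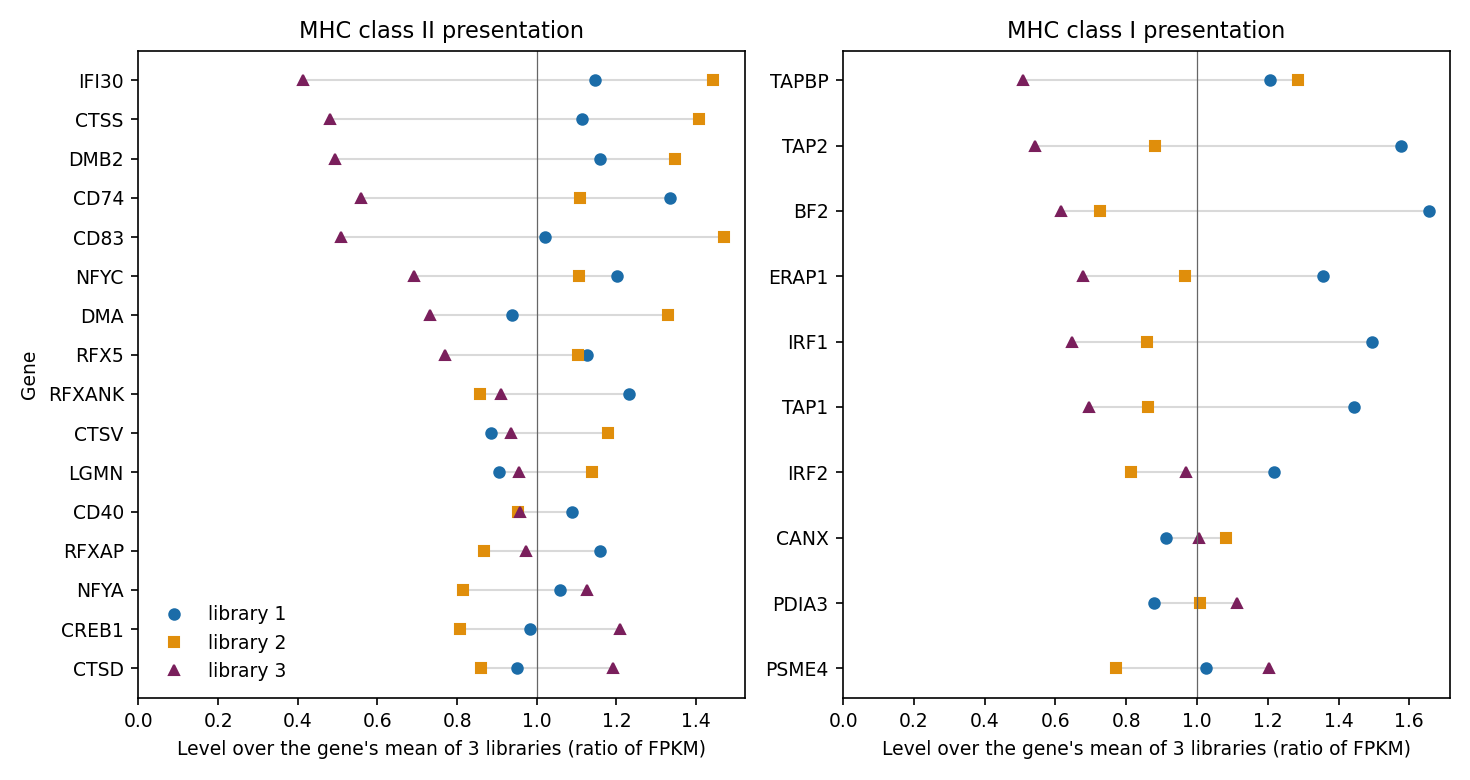
Level in each library as a ratio to the gene's mean over 3 libraries, for the 16 class II and 10 class I genes kept, with 1 symbol per library and the genes lowest in library 3 at the top. In IFI30, CTSS, DMB2, CD74 and CD83 library 3 lies far to the left, while BF2, at 757, 332 and 282 FPKM, has library 1 far to the right.

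Other lysosomal genes differed less than CTSS between library 3 and the mean of the others. Of 37 listed genes 26 were matched and 25 kept. CTSS was the only one of the 25 with a level at least 1.5-fold lower in library 3 than in each other library. Of the other 24, 0 met that rule, which is not far from the 4.53% of all genes. Lowest in library 3 were 15 of the 25, and 14 of the 24 without CTSS, against 39.4% of all genes. CTSK was listed at 12.9, 36.2 and 12.3 FPKM, nearly level between libraries 1 and 3. Library 3 minus library 2 was -1.48 log2 for CTSK and -1.45 for CTSS. The list's 2 members of highest mean differed by less than 1.5-fold between libraries. CST3, the protease inhibitor cystatin C, was listed at 469, 597 and 437 FPKM, highest in library 2 as CTSS was. PSAP, prosaposin, was listed at 284, 241 and 234 FPKM. The list's median difference of library 3 from the others was -0.21 log2, and -0.07 after median-of-ratios scaling, against 0.03 for all genes under that scaling.

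The partner proteins of TLR4 and LY86 were listed at low levels. LY96, the coreceptor MD-2 that binds lipopolysaccharide with TLR4, was listed at 0.251, 2.73 and 1.20 FPKM, above TLR4 in libraries 2 and 3 and below it in library 1. CD14, which hands lipopolysaccharide on, was listed at 0.248, 0.440 and 0.215 FPKM, and CD180, the partner of LY86, at 0.205, 0.165 and 0.106 FPKM. LY86 thus exceeded CD180 by a wide margin in every library. MYD88, the adaptor below most Toll-like receptors, was listed at 6.31, 3.34 and 3.09 FPKM and was highest in library 1.

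Across the TLR4 list 32 of 46 genes were matched and 26 kept, of which 17 were lowest in library 3 and 7 were at least 1.5-fold below both other libraries, against 39.4% and 4.53% of all genes. LY86 is 1 of the 7, and the others were IRF5, JUN, LBP, NFKB2, NFKBIA and TNIP1. IRF5 and TLR4 were kept through libraries 1 and 2 alone, which fixes library 3 as their lowest and partly builds in their low value there. TNIP1, an inhibitor of NF-kappaB signalling, was listed at 74.3, 45.0 and 28.9 FPKM. UBE2N, a ubiquitin-conjugating enzyme, was listed at 42.8, 57.3 and 58.6 FPKM. FOS, an immediate early transcription factor, was listed at 54.0, 10.5 and 6.83 FPKM, high in library 1 only. The cytokine IL6 was listed at 0 in every library.

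Among the other Toll-like receptors, TLR1B, of the receptors of bacterial lipopeptides, was listed at 4.62, 2.15 and 0.938 FPKM and TLR21, the chicken receptor of unmethylated DNA, at 1.38, 2.04 and 1.36 FPKM. Both exceeded TLR4 in mean level, and TLR1B had its libraries in the same order as MARCO. These were the only kept genes of 6 matched. TLR1B was kept through libraries 1 and 2 alone, which fixes library 3 as its lowest and partly builds in its low value there.

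MARCO was among the lowest of the scavenger and phagocytic receptors. Of 33 listed genes 18 were matched and 16 kept, and 13 of the 16 were lowest in library 3, against 39.4% of all genes. MARCO is 1 of these, and the filter fixed its lowest library. Highest in library 1 were also 13 of the 16, against 51.1% of all genes. The list's median was -0.86 log2 for library 3 minus library 1 and -0.19 for library 3 minus library 2. For all genes these were -0.16 and -0.02. MFGE8, a bridge between phagocytes and dying cells, led the list at 92.6, 61.2 and 85.3 FPKM, followed by SCARB2, a lysosomal membrane protein, at 34.8, 26.0 and 23.6 FPKM. The subunits of complement C1q, made largely by macrophages in mammals, had levels between those of MARCO and CTSS. C1QA was listed at 13.8, 14.1 and 5.26 FPKM and C1QC at 13.8, 11.6 and 5.95 FPKM, low in library 3 in both cases. Library 3 was at least 1.5-fold below both other libraries in 4 of the 16, C1QA, C1QC, ITGB2 and SCARA5, against 4.53% of all genes.

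Markers of macrophages and monocytes, a list that includes LY86 and MARCO, were mostly lowest in library 3. Of 42 listed genes 29 were matched and 20 kept, 18 of the 20 were lowest in library 3, and 9 were at least 1.5-fold below both other libraries, against 39.4% and 4.53% of all genes. Without LY86 and MARCO these counts were 16 and 8 of 18. BTK, CEBPA, NCF4, SYK and MARCO were kept through libraries 1 and 2 alone, which fixes library 3 as their lowest. Of these, CEBPA, NCF4 and SYK are among the 9. CEBPB, a transcription factor of myeloid and many other cells, was listed at 43.7, 10.9 and 6.41 FPKM. SPI1, the myeloid factor PU.1, was listed at 5.29, 5.77 and 2.12 FPKM, and LAPTM5, a lysosomal protein of leukocytes, at 15.2, 17.2 and 9.07 FPKM. The other two kept genes were highest in library 3: HPGDS, a prostaglandin D synthase, at 1.44, 6.69 and 7.09 FPKM and MAF, a transcription factor, at 2.14, 2.06 and 2.39 FPKM. The summed FPKM of the 29 genes was 170, 123 and 75.4 in libraries 1 to 3, and none of them was under 0.1 FPKM in every library. These sums include LY86, MARCO and CEBPB, and CEBPB alone stood at 43.7 FPKM in library 1 against 10.9 in library 2. In bulk tissue, fewer cells of a type and less RNA per cell cannot be told apart.

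Among markers of other blood cells, the 5 lymphocyte and 2 heterophil genes kept were lowest in library 3 too. The heterophil count rests on AVD and CSF3R alone, and the filter fixed the lowest library of CSF3R. Thrombocyte and dendritic cell genes were mixed. Of 23 lymphocyte genes 17 were matched, with sums of 27.2, 41.0 and 13.2 FPKM. All 5 kept were lowest in library 3, against 39.4% of all genes. CD3D, of the T cell receptor complex, was listed at 6.05, 9.63 and 3.78 FPKM and CD3E at 3.17, 3.70 and 1.47 FPKM. IL2RG, a shared cytokine receptor chain, was listed at 5.51, 6.15 and 1.60 FPKM, CD247 at 1.71, 2.28 and 1.31 FPKM, and JCHAIN, which joins secreted antibodies, at 7.08, 16.2 and 3.09 FPKM. These 5 genes were highest in library 2 (26.3% of all genes), as CTSS and TLR4 were. Under the filter, CD4 at 0.340, 0.376 and 0.378 FPKM and CD8A at 0.529, 0.510 and 0.473 FPKM were nearly level. PAX5, a transcription factor of B cells, was listed at 0 in every library.

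Of 16 heterophil genes 7 were matched, with sums of 53.2, 77.7 and 14.8 FPKM. Both genes kept were lowest in library 3, against 39.4% of all genes. AVD, the biotin-binding protein avidin, was listed at 50.3, 72.2 and 14.1 FPKM and made up most of these sums. CSF3R, the receptor of a granulocyte growth factor, was listed at 2.40, 4.36 and 0.341 FPKM. It was kept through libraries 1 and 2 alone, which fixes library 3 as its lowest and partly builds in its low value there. Under the filter, CATH1 was listed above 0 in library 3 alone and CATH2 in library 2 alone. LECT2 was at 0 throughout, and MMP9 and LYZ were lowest in library 3. Of 14 thrombocyte genes 6 were matched, with sums of 16.5, 8.39 and 6.14 FPKM. Of the 2 kept, 1 was lowest in library 3, against 39.4% of all genes. THBS1, thrombospondin, was listed at 10.9, 5.25 and 2.30 FPKM and F13A1, a clotting factor chain, at 4.60, 2.13 and 2.91 FPKM, while TBXAS1 and GFI1B were under 0.1 FPKM in every library. Of 10 dendritic cell genes 7 were matched, with sums of 53.4, 30.6 and 28.0 FPKM. Of the 3 kept, 2 were lowest in library 3, LY75 and CD83, against 39.4% of all genes. CD83 is also on the class II list. LY75, an endocytic receptor, was listed at 39.9, 15.0 and 14.6 FPKM, and ID2, a widely expressed inhibitor of transcription factors, at 10.2, 11.4 and 11.4 FPKM. LY75 made up most of the dendritic cell sum in library 1 and was nearly level between libraries 2 and 3. The part of these cell types in the levels of the 5 genes was not tested.

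Stromal, red cell and fibre genes did not have their lowest sums in library 3. The 9 fibroblast genes matched of 11 summed to 441, 919 and 691 FPKM and the 9 endothelial genes matched of 12 to 101, 58.9 and 68.1 FPKM. The 8 red blood cell genes matched of 13 summed to 70.1, 410 and 291 FPKM, with HBZ listed at 0 and HBAD, HBBR and HBE under 0.1 FPKM in every library, and the 7 fibre genes matched of 16 to 58994, 74913 and 73941 FPKM. The fibrillar collagen genes COL3A1 and COL1A2 were listed at 168, 409 and 307 FPKM and at 80.8, 205 and 153 FPKM. The endothelial genes PLVAP and CDH5 were listed at 57.0, 30.1 and 30.8 FPKM and at 14.0, 11.3 and 15.4 FPKM. HBBA, a globin, was listed at 24.3, 54.1 and 98.7 FPKM, highest in library 3. CA2, a carbonic anhydrase, was listed at 45.7, 355 and 189 FPKM. It made up most of the red blood cell sums, which followed its order of libraries and not that of HBBA. None of these genes was lowest in library 3. Members of these lists that were lowest in library 3 were THY1, at 15.1, 32.0 and 8.61 FPKM, DPT, at 18.5, 16.8 and 14.5 FPKM, PECAM1, also carried by leukocytes, at 7.21, 5.24 and 3.40 FPKM, TNNC2, at 14970, 14728 and 13542 FPKM, and PVALB, at 2.37, 1.46 and 1.28 FPKM.

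**Figure D5:**
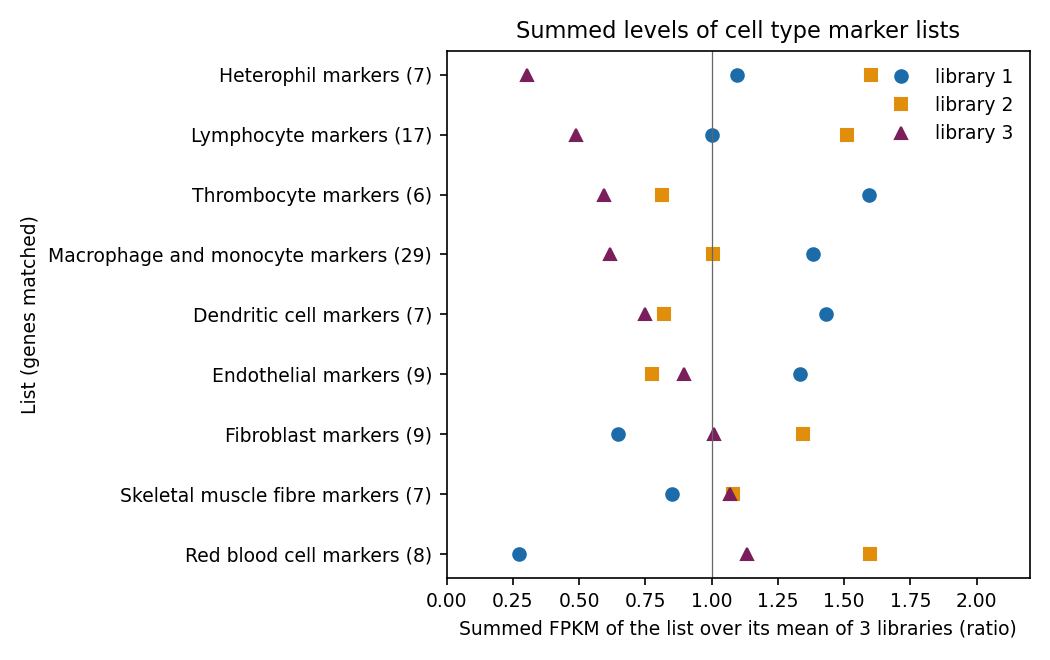
Summed FPKM of each cell type marker list as a ratio to its mean over 3 libraries, with the number of matched genes in brackets and 1 symbol per library. Library 3 is the lowest for the 5 lists at the top, with macrophage and monocyte sums of 170, 123 and 75.4 FPKM, and lies between the other libraries for endothelial, fibroblast, fibre and red blood cell lists. AVD makes up most of the heterophil sums and CA2 most of the red blood cell sums. LY75 makes up most of the dendritic cell sum in library 1. The macrophage and monocyte sums include LY86 and MARCO.

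Genes with the most similar profile were sought among 4363 other genes with a mean of at least 5 FPKM, as the smallest Euclidean distance from the mean centred log2(FPKM + 1) profile of the 5 genes over 3 libraries. That profile stood at 0.39, 0.25 and -0.64 in libraries 1 to 3. The nearest were CDK5, a protein kinase best known from neurons, at a distance of 0.0089, RHOT2, a GTPase of the mitochondrial outer membrane, at 0.048, C1QC at 0.072, the actin-binding protein SVIL at 0.080 and ABI1, a regulator of actin assembly, at 0.080. CDK5 was listed at 12.4, 11.3 and 5.56 FPKM. LY86 itself lay at 0.081, with 5 other genes nearer, and CD74 at 0.157 with 20 nearer. TLR4 lay at 0.323 with 127 nearer, MARCO at 0.403 with 230 nearer, and CTSS at 0.426 with 278 nearer. TLR4 and MARCO, whose differences this scale understates, enter the mean profile. Over 3 libraries many genes share a profile.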

How the data were processed

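Breast muscle mRNA was sequenced in 3 libraries of 1 group. The authors deposited 1 table per library with 36977 RefSeq transcripts and a value each. The tables name no unit, and the deposited values were treated as FPKM, since they are not whole and 4247 to 4370 of them per library lie between 0 and 0.001. CASAVA 1.7, Bowtie2 and HTSeq are named in the submitters' processing notes, with no role. The build and annotation were not given in the sources used here.

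Accessions, version dropped, were paired with symbols through the NCBI chicken gene table (assembly GRCg7b), used for names only. Of the transcripts 13188 (35.7%) matched, with values summed over 10663 genes. A gene was kept where 2 or more libraries reached 1 FPKM (6595 genes), and levels were taken as log2(FPKM + 1). The variance of each gene over libraries (residual df 2) was set against its robust mean-dependent trend with limma 3.58.1 under R 4.3.3 (upper F tail). A gene was called where p, adjusted by Benjamini-Hochberg over all genes, was under 0.05. The procedure was also run on simulated data, and the outcome is not given here. Differences between single libraries have no test.

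The 5 genes and the 15 lists were chosen with earlier results of these data known, so list counts and medians are descriptions. List genes were matched by symbol only. The text names, of each list, the 2 genes of highest mean, the gene of at least 5 FPKM with the largest difference of library 3 from the mean of the others and every kept gene of lists with 5 or fewer, and the 5 genes of nearest profile. Others were named for their role or their place in a count after their values were seen.

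Alternatives were pseudocount 0.1, no filter, median-of-ratios scaling, the highest transcript of a gene, curated transcripts only and each library left out. Plain FPKM ratios were added after the data were seen.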

Additional observations from a re-analysis of the deposited data

How the results depend on the processing

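All 5 genes were also lowest in library 3 after median-of-ratios scaling, the only alternative that moves libraries against each other. It divided libraries 1 to 3 by 1.09, 0.989 and 0.949. These are small shifts beside plain ratios of library 3 of 0.25 to 0.53, so the count could hardly change. Under the other alternatives the count was fixed in advance, so it says nothing of stability. The counts of genes 1.5-fold lower in library 3 stayed at 4 or, with pseudocount 0.1 and plain FPKM ratios, reached 5. With pseudocount 0.1 the difference of library 3 from the mean of the others became -1.29 for TLR4 and -1.33 for MARCO, by construction of the scale. With median-of-ratios scaling 0 of the 5 genes, in place of 1, differed by 1.5-fold between libraries 2 and 1 on the log2(FPKM + 1) scale. The limma test called 0 to 31 genes of the whole table with 1 library left out, and 0 of the 5 genes throughout. The cause was not tested. With a library left out, the difference of library 3 ranged from -1.25 to -0.98 for CD74, -1.45 to -1.13 for CTSS, -1.11 to -0.87 for LY86, -0.72 to -0.58 for TLR4 and -1.07 to -0.42 for MARCO, and the mean share of the 5 genes from 0.041% to 0.061%. Differences of library 3 cannot be had without library 3. The share was not recomputed for settings that do not enter it. No paired analysis was possible because the libraries form 1 group. Read depth is unknown, which limits what can be said of TLR4 and MARCO, near 1 FPKM.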
